A study of Mus musculus with 12 samples.

Results

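The heat shock proteins and their DnaJ co-chaperones were described in the mouse left ventricle apex, in samples whose titles name only the ventricles. The members are the protein-coding genes whose symbol starts with Hsp90, Hspa, Hspb, Hspd, Hspe, Hsph, Dnaja, Dnajb or Dnajc, a rule that uses names and no measured value. It found 74 members among the 56350 gene IDs of the deposited table, and 64 of them had a normalised read count of at least 10 in at least 3 libraries, the condition for a test, which 13916 genes met in all. Polyadenylated RNA was extracted 8 weeks after an operation, which was either a sham or TAC (transverse aortic constriction), in which the arch of the aorta is tied narrower so that the left ventricle pumps against a higher pressure. The control mice carried the genotype lincRNA-p21 heterozygous and the knockout mice lacked this long noncoding RNA (gene symbol Trp53cor1) in the whole body. Each genotype had sham and TAC animals, which gave 4 groups of 3 libraries, called control sham and TAC and knockout sham and TAC below. No wild-type group enters the comparisons, and the labels give neither the strain, age and sex of the mice nor whether each library is 1 animal, so p-values measure the spread between these libraries.

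Heat shock proteins bind proteins that are unfolded or damaged and help them fold, assemble or be destroyed. HSP70 proteins do this in cycles of ATP binding and hydrolysis: J-domain proteins (Dnaja, Dnajb and Dnajc) bring clients and speed up hydrolysis, and exchange factors such as HSP110 let the client go. HSP90 finishes the folding of kinases and receptors, the small heat shock proteins (Hspb) hold unfolded proteins without using ATP and are abundant in heart muscle, and separate members work in the endoplasmic reticulum and in mitochondria. When unfolded proteins pile up in the cytosol, the factor HSF1 binds heat shock elements in the promoters of inducible members; stress in the endoplasmic reticulum raises another set through its own promoter element.

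Assigned reads ran from 10323605 to 13238934 per library. Trp53cor1 had 11 reads over the 6 control libraries, 4 of which held at least 1, and 0 in the 6 knockout libraries, which allows up to 0.0413 CPM there (3 reads over the 6 libraries, counting error only). Markers of ventricular muscle cells were at high levels in every library. Their summed count was 910149 to 948510 in control sham and 723740 to 802085 in control TAC, and 4 of the 8 marker genes were lower and 1 was higher with TAC in controls. In the same comparison 5 of 6 atrial muscle markers were higher, 5 of 6 mesothelial and 3 of 5 erythroid markers were lower, and no marker was at 0 in all libraries. These lists moved with the same contrast as the members below, and their part in it was not tested. In such bulk tissue, fewer cells of a type and less RNA per cell cannot be told apart. On the second principal component of all tested genes, control sham replicate 3 had a score of −46.8 and lay far from the rest. It was the lowest of its group in 42 of the 64 tested members and the highest in 10. Over all tested genes it was the lowest in 40.8% and the highest in 37.6%.

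The promoters of 4 members held a full heat shock element, and are shown because HSF1 is known to act through such elements. RefSeq promoters (250 bases before to 50 after the start site, build GRCm38.p6) were in the table for 60 of the 74 members, as 77 promoters. The element searched was GAANNTTCNNGAA, 3 alternating units, with TTCNNGAANNTTC for the other strand. It was found in 6 of the 77 promoters of members (7.79%) and in 0.603% of all 32851 promoters of the table. The 6 include overlapping promoters of Hsph1 and of Dnajb6 that hold the same element, so they are not separate finds. Counted by gene, the element was in 4 of 60 members (6.67%) and in 0.662% of all 27025 genes. The members with it were Hsph1, Dnajb6, Hspd1 and Hspe1. Hspd1 and Hspe1 encode the large and small subunit of the mitochondrial chaperonin and start back to back, so 285 of the 300 bases of both promoters are the same stretch and only the Hspd1 side is printed. Another promoter of Hspd1 held no element. Capitals mark the elements, which overlap each other in Hspd1. In Hsph1 the element lies after the start site.
Hsph1 (chr5:149636287-149636586, minus strand): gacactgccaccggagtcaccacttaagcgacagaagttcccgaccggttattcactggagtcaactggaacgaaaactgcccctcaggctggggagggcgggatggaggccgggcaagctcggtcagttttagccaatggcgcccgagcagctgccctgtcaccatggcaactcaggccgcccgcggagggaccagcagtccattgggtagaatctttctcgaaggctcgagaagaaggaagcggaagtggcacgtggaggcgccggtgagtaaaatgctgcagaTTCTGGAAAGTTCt
Dnajb6 (chr5:29735648-29735947, plus strand): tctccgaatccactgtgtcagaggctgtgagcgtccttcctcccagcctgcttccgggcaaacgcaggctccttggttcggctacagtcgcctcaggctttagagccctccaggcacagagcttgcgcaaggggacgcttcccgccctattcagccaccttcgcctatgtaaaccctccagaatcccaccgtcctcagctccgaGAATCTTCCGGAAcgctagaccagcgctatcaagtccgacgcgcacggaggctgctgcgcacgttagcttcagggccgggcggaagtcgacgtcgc
Hspd1 (chr1:55087883-55088182, minus strand): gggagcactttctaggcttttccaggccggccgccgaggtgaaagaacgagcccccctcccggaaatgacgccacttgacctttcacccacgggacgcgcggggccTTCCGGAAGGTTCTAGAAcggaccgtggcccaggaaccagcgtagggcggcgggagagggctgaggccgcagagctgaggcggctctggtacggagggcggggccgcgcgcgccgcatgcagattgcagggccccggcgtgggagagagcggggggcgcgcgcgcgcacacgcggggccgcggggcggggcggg

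Hspa1a and Hspa1b, the stress-inducible HSP70 pair, had no full element in this window, which says only that these letters are not in it. Both held the shorter inverted pair GAANNTTC, found as GAANNTTC or TTCNNGAA in 15.1% of all promoters and in 23.4% of those of members, a search added after the other results were known. The sequences are printed because they show how alike the copies are. The promoters differ at 4 of 300 bases, the genes lie 9951 bases apart, and reads from the transcripts may be hard to assign to one copy. Capitals mark the inverted pair, whose first base lies 104 bases before the start site.
Hspa1a (chr17:34972107-34972406, minus strand): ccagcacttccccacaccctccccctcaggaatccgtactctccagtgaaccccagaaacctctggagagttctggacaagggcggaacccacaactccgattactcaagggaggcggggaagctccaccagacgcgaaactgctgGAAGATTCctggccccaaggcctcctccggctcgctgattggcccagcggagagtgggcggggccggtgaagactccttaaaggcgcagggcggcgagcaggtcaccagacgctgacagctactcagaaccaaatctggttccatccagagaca
Hspa1b (chr17:34959189-34959488, minus strand): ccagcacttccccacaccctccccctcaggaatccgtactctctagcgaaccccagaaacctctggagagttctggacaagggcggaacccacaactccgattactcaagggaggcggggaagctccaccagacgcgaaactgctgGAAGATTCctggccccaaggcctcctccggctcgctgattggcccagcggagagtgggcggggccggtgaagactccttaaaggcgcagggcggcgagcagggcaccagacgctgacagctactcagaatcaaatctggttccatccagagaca

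The endoplasmic reticulum stress element was searched as CCAAT, 9 free bases and CCACG on both strands. It was in 0.119% of all promoters and in 3 members, Hspa5, Hsp90b1 and Dnajc3, all of which work in that compartment. The promoter of Hspa5, which encodes the reticulum's HSP70, is shown with the element in capitals.
Hspa5 (chr2:34771840-34772139, plus strand): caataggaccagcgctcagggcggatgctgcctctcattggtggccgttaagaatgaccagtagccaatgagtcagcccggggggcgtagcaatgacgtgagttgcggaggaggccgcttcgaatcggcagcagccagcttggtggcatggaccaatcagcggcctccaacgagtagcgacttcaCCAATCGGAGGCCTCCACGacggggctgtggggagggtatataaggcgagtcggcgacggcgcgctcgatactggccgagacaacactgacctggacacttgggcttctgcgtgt

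Levels of the 64 tested members ran from the abundant small heat shock proteins of muscle to genes near the limit of the filter. The scale for comparing genes is the normalised read count per 1000 bases of the longest transcript, averaged over the 12 libraries. By this measure Hspb7, a small heat shock protein of heart and skeletal muscle, was highest at 13544. Hspb6, a small heat shock protein that is phosphorylated by cyclic nucleotide-dependent kinases, followed at 6861 and the constitutive cytosolic Hsp90ab1 at 6782, and these neighbours did not differ beyond their spread over libraries. Next came Hspb8 at 4232, the mitochondrial HSP70 Hspa9 at 3541 and Hspa5 at 2216. The reticulum's HSP90 Hsp90b1, the constitutive HSP70 Hspa8 and the J-domain protein Dnaja2 were at 1138, 1111 and 1039, within the spread of each other. In all, 9 tested members were above 1000 per 1000 bases, 30 between 100 and 1000, 24 between 10 and 100, and Hspbap1 below 10, at 7.35. Genes known to respond to heat were spread over the order, with Hspb1 at 619.9, Dnajb4 at 309, Hsph1 at 177, Hsp90aa1 at 90.5, Hspa1b at 21.2 and Hspa1a at 16.2. Hspa1a, Hspa1b, Hsp90aa1, Hspa8 and Dnaja1 have near-identical copies or processed copies elsewhere in the genome, and how reads that fit several places were counted is not given in the sources used here, so these levels are uncertain.

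**Figure D1:**
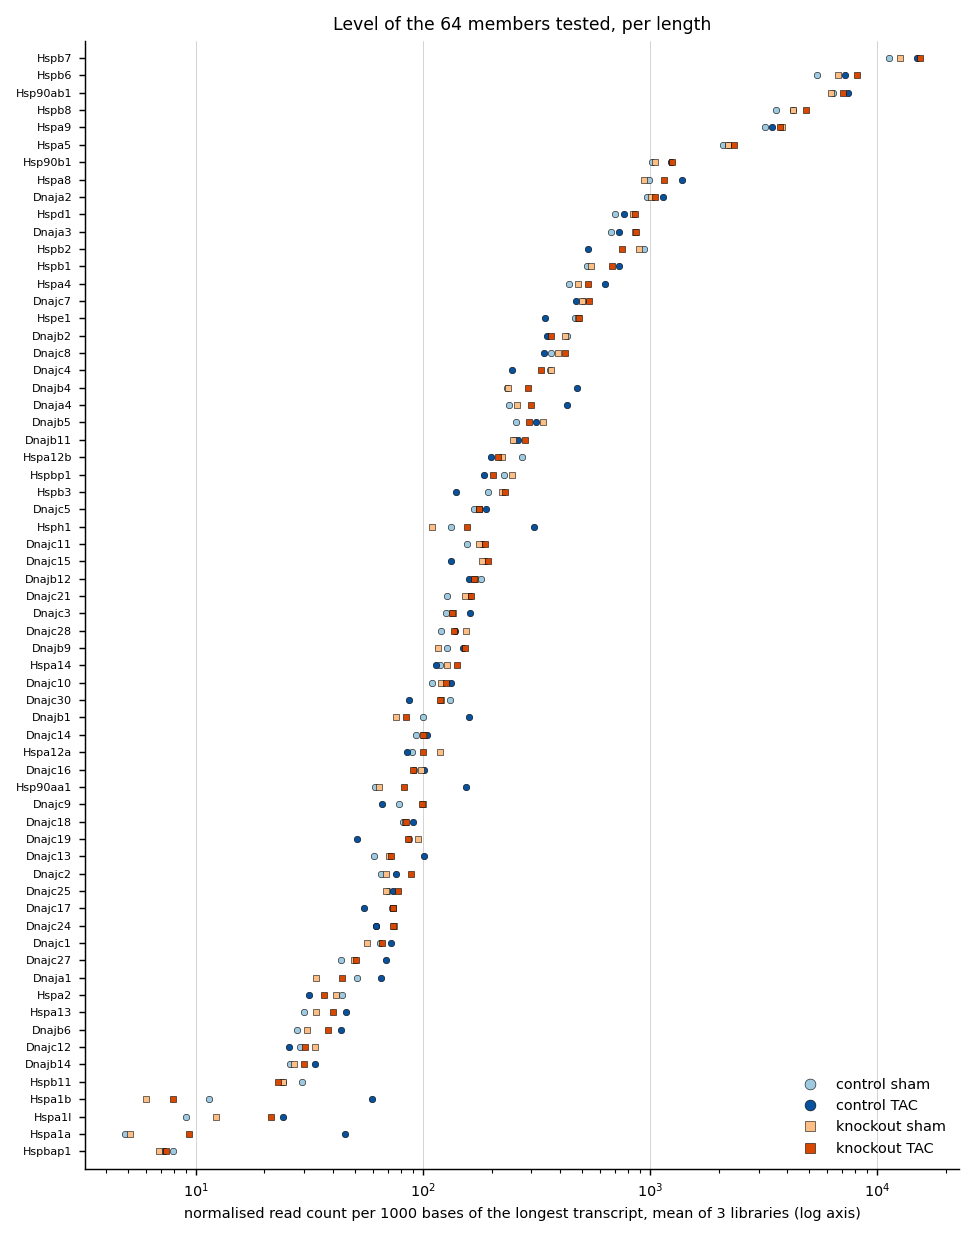
Normalised read count per 1000 bases of the longest transcript (log axis) for the 64 tested members, ordered by their mean, with the mean of 3 libraries for each of the 4 groups as a point. Hspb7 leads at 13544, and the inducible Hspa1a (16.2) and Hspa1b (21.2) are near the bottom, and in both the control TAC point lies to the right of the other groups.

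The 10 members that did not pass the filter were Dnajb3, Dnajb7, Dnajb8, Dnajb13, Dnajc5b, Dnajc5g, Dnajc6, Dnajc22, Hspa4l and Hspb9. Dnajb8 and Hspa4l had 0 of 142414250 reads over the 12 libraries, which allows up to 0.0211 CPM (3 reads over the 12 libraries, counting error only). Reads left out by the way of counting, which is not fully known here, are not covered by this limit. The other 8 had from 1 read (Dnajc5g) to 50 reads (Dnajb13) in total. No statement on a change is made for them.

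TAC against sham in controls asked how pressure load changes chaperone genes while lincRNA-p21 is present. Of 11 HSP70 genes tested Hspa1a and Hspa1l rose, and of 3 HSP90 genes Hsp90aa1 did. The exchange factors Hsph1 and Hspa4, 5 J-domain genes and the muscle small heat shock proteins Hspb6 and Hspb7 rose as well. Hspb2 and the J-domain genes Dnajc19, Dnajc30 and Dnajc4 fell, and no member placed in the endoplasmic reticulum passed. Of 64 members tested, 12 were higher (11.0% of all tested genes were) and 4 were lower (10.6% of all genes), and 48 did not pass. Changes are differences of log2(value + 1) between group means, ± SE, tested by limma-trend with Benjamini-Hochberg adjustment over all 13916 genes at 0.05. Changes of genes with low counts are understated on this scale. The median change was 0.18 over the members and 0.0075 over all genes tested. Values were without overlap between the groups, all higher with TAC, in 16 members (17.7% of genes) and all lower in 9 members (17.7% of genes).

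Hspa1a (ENSMUSG00000091971.3, chromosome 17, 34969190 to 34972156, minus strand, GRCm38), an HSP70 that is nearly silent in unstressed tissue, had the largest change of the members. Its normalised read counts were 3.20, 32.3 and 7.63 in control sham and 134, 248 and 22.4 in control TAC. Replicates 1 and 2 of control TAC were far above every sham library, while replicate 3 lay below control sham replicate 2, so the groups overlapped. The change was 3.12 ± 0.87 (adjusted p = 0.0256), and it was 4.11 without control TAC replicate 3. Its call was lost in 7 of 24 alternative settings, among them leaving out control TAC replicate 1 (2.84, adjusted p = 0.0718) or 2 (2.40, adjusted p = 0.0816), control sham replicate 1 (2.45, adjusted p = 0.0768) and control sham replicate 3 (2.97, adjusted p = 0.106).

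The near-identical Hspa1b (ENSMUSG00000090877.3, chromosome 17, 34956436 to 34959238, minus strand) showed the same split of libraries, 11.7, 66.5 and 17.8 in control sham and 209.8, 277 and 13.1 in control TAC. Its change of 1.89 ± 0.99 did not pass (adjusted p = 0.197). Without control TAC replicate 3 it was 3.26 (adjusted p = 0.00193), and DESeq2 on the recovered reads gave 2.38 (adjusted p = 0.0485). Summed over both copies, which does not depend on how reads were split between them, the counts were 14.9, 98.7 and 25.4 in control sham and 344, 525 and 35.4 in control TAC. Control TAC replicate 3 lay between control sham replicates 2 and 3. GENCODE M21 places the gene Gm20481 over Hspa1a on the opposite strand, and whether counting used strand is not given in the sources used here.

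Hspa1l (ENSMUSG00000007033.4, chromosome 17, 34972703 to 34979285, plus strand), an HSP70 best known from testis, lies 546 bases from Hspa1a on the opposite strand. It was at 21.3, 20.9 and 24.6 in control sham and 47.6, 74.2 and 56.9 in control TAC, with every TAC library above every sham library. The change was 1.36 ± 0.25 (adjusted p = 0.002) and passed in all 25 alternatives run. Unlike the pair beside it, it had no low control TAC replicate 3, whose count of 56.9 lay between the other two.

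Among the remaining HSP70 genes none passed by limma-trend. The constitutive Hspa8, the most abundant cytosolic HSP70 here, was at 3105, 3538 and 2675 in control sham and 4764, 5290.3 and 3013 in control TAC, again with replicate 3 low, and its change was 0.46 ± 0.17 (adjusted p = 0.0718). It passed without that library (0.70, adjusted p = 0.00609) and with DESeq2 (adjusted p = 0.0329). Hspa12b, an HSP70 relative of endothelial cells, had a change of −0.38 ± 0.19 (adjusted p = 0.172) and −0.10 without control sham replicate 3, which held 1299.8 against 626 and 857 in the other sham libraries. Hspa2, another HSP70 best known from testis, had −0.52 ± 0.20 (adjusted p = 0.0725). Hspa12a and Hspa14 had −0.030 and −0.072.

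The exchange factors of HSP70 rose with TAC in controls in 2 of 3 tested cases. Hsph1 (ENSMUSG00000029657.15, chromosome 5, 149614287 to 149636376, minus strand), the HSP110 whose promoter is printed above, was at 558, 774 and 559.6 in control sham and 1692, 1939.6 and 775 in control TAC. All TAC libraries were above the sham libraries, replicate 3 narrowly so. The change was 1.13 ± 0.28 (adjusted p = 0.0137), and its call was lost in 5 of 25 alternatives, including those without control TAC replicate 1 (adjusted p = 0.0534), control TAC replicate 2 (adjusted p = 0.0595) or control sham replicate 3 (adjusted p = 0.0909). Hspa4 (ENSMUSG00000020361.13, chromosome 11, 53259814 to 53300457, minus strand), another relative of the HSP110 group, was at 2232, 2270.0 and 1592 in control sham and 2944, 3154 and 2653 in control TAC without overlap. It changed by 0.54 ± 0.14 (adjusted p = 0.0133), and by 0.48 without control TAC replicate 2, which ended the call (adjusted p = 0.0637). Hspbp1, an exchange factor that matches the rule through its symbol, had a change of −0.30 ± 0.13 and did not pass (adjusted p = 0.121).

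Of the HSP90 genes, the inducible cytosolic Hsp90aa1 (ENSMUSG00000021270.13, chromosome 12, 110690605 to 110702728, minus strand) rose. It was at 238, 252 and 112 in control sham and 496, 690.1 and 340.3 in control TAC, so that even the lowest TAC library was above all sham libraries. The change was 1.37 ± 0.28 (adjusted p = 0.00465) and held in all 25 alternatives. The constitutive Hsp90ab1 was at 13678 to 18810.5 in control sham and 15646 to 21136 in control TAC with overlap, a change of 0.22 ± 0.14 (adjusted p = 0.276). Hsp90b1 in the reticulum had 0.28 ± 0.13 (adjusted p = 0.129).

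Among the J-domain proteins 5 of 37 tested were higher and 3 were lower. Dnajb4 (ENSMUSG00000028035.13, chromosome 3, 152178511 to 152210302, minus strand), a cytosolic partner of HSP70 found in heart muscle, was at 1211, 1604 and 628 in control sham and 2443, 2836 and 1720.1 in control TAC. Dnaja4 (ENSMUSG00000032285.15, chromosome 9, 54698873 to 54716315, plus strand), another cytosolic partner, was at 849, 812 and 487 in control sham and 1223, 1647 and 1008 in control TAC. In both genes all TAC libraries were above all sham libraries, control sham replicate 3 was the lowest of 6 and control TAC replicate 2 the highest. The change was 1.09 ± 0.26 for Dnajb4 (adjusted p = 0.0105) and 0.86 ± 0.20 for Dnaja4 (adjusted p = 0.00681), and that of Dnaja4 held in all 25 alternatives. Without control sham replicate 3 the change of Dnajb4 was 0.71 (adjusted p = 0.0105).

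Dnajc13 (ENSMUSG00000032560.14, chromosome 9, 104151282 to 104262930, minus strand), which acts with Hspa8 on endosomes, had the smallest p of all members. Its counts were 532, 513 and 413 in control sham and 856, 816 and 764 in control TAC, tight groups that lay well apart. The change was 0.75 ± 0.12 (adjusted p = 9.9e-04). Dnajc27 (ENSMUSG00000020657.16, chromosome 12, 4082583 to 4110606, plus strand), a small GTPase of the Rab type that carries a J domain, was at 217, 203 and 192 in control sham and 320.1, 351 and 293 in control TAC, a change of 0.65 ± 0.13 (adjusted p = 0.0037) that held in all 25 alternatives. Dnajb6 (ENSMUSG00000029131.14, chromosome 5, 29735688 to 29818134, plus strand), which keeps proteins from aggregating and whose mutations cause a muscular dystrophy, was at 73.5, 92.1 and 77.2 in control sham and 136, 139 and 107 in control TAC with a change of 0.65 ± 0.20 (adjusted p = 0.0301). Its call was lost in 7 of 25 alternatives, among them leaving out control sham replicate 1 (adjusted p = 0.0655), control TAC replicate 1 (adjusted p = 0.0942), control TAC replicate 2 (adjusted p = 0.106) or control sham replicate 3 (adjusted p = 0.0639).

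Dnajb1, the classical partner of inducible HSP70, did not pass. It was at 248, 424 and 220.4 in control sham and 593, 661 and 172 in control TAC, where replicate 3 was the lowest of all 6 control libraries. The change was 0.51 ± 0.42 (adjusted p = 0.414), and 1.13 without that library (adjusted p = 0.00384). Dnaja1 was also lowest in replicate 3 of the control TAC libraries (462, 439.8 and 195) and had a change of 0.27 ± 0.26 (adjusted p = 0.493). Dnaja2, the mitochondrial Dnaja3, Dnajb2 and Dnajb5 had changes of 0.31, 0.14, −0.28 and 0.26, with adjusted p from 0.0789 to 0.532.

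The 29 J-domain genes that did not pass had changes from −0.50 (Dnajc15) to 0.51 (Dnajb1), and 25 of all 37 changes were above 0. The other 3 J-domain genes fell. Dnajc19 (ENSMUSG00000027679.13, chromosome 3, 34056020 to 34081321, minus strand), a part of the motor that pulls proteins into mitochondria and a gene mutated in an inherited dilated cardiomyopathy, was at 213, 231 and 209 in control sham and 135, 109 and 139 in control TAC. The change was −0.77 ± 0.16 (adjusted p = 0.00363) and held in all 25 alternatives. Dnajc30 (ENSMUSG00000061118.8, chromosome 5, 135064202 to 135065862, plus strand), another mitochondrial J-domain protein, was at 219, 215 and 217 in control sham and 134, 155 and 144 in control TAC, which gave −0.59 ± 0.14 (adjusted p = 0.0085). Dnajc4 (ENSMUSG00000024963.12, chromosome 19, 6987911 to 6992572, minus strand) was at 341, 414 and 416 in control sham and 248, 299 and 249.9 in control TAC, a change of −0.55 ± 0.14 (adjusted p = 0.0123) that did not pass without control TAC replicate 1 (adjusted p = 0.0507). In each of the 3 genes the groups did not overlap and no single library stood out.

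Small heat shock proteins went both ways. Hspb6 (ENSMUSG00000036854.14, chromosome 7, 30552178 to 30555443, plus strand) was at 11051, 10343 and 10756 in control sham and 14433, 14869 and 13555 in control TAC, and Hspb7 (ENSMUSG00000006221.7, chromosome 4, 141420779 to 141425311, plus strand) at 30939.7, 35988 and 26846 in control sham and 37844, 45555 and 40634 in control TAC. Each was above sham in every TAC library, by 0.41 ± 0.11 (adjusted p = 0.0152) and 0.41 ± 0.13 (adjusted p = 0.0347). These changes were small on a log scale and rested on high counts. With only the 2 groups compared neither passed (adjusted p = 0.0833 for Hspb6 and 0.125 for Hspb7). With voom Hspb7 did not pass (adjusted p = 0.0533). Both calls were lost without control TAC replicate 2 (adjusted p = 0.0657 and 0.144), that of Hspb6 also without control TAC replicate 1 (adjusted p = 0.0514) and that of Hspb7 also without control TAC replicate 3 (adjusted p = 0.0699), knockout sham replicate 2 (adjusted p = 0.0537) or knockout TAC replicate 1 (adjusted p = 0.0517), which enter through the shared spread.

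Hspb2 (ENSMUSG00000038086.4, chromosome 9, 50751078 to 50752354, minus strand), a muscle-specific small heat shock protein, fell from 657, 748 and 780.0 in control sham to 438, 376 and 422 in control TAC, a change of −0.82 ± 0.15 (adjusted p = 0.00167). The gene overlaps Cryab, the alpha-B-crystallin gene, on the opposite strand, so its reads are uncertain without a known strand setting. Cryab itself had 23105 to 27300.1 in control sham and 19589.7 to 23480.0 in control TAC, a change of −0.26 ± 0.13 (adjusted p = 0.158). Hspb3, the partner of Hspb2, had −0.48 ± 0.19 (adjusted p = 0.0863). Hspb1 was at 355, 501 and 611 in control sham and 638, 895 and 494 in control TAC, with 0.46 ± 0.20 (adjusted p = 0.119), and passed without control TAC replicate 3 (adjusted p = 0.0364) and without control sham replicate 3 (adjusted p = 0.0459). Hspb8, which works with Bag3 in the clearance of damaged sarcomere proteins, had 0.25 ± 0.14 (adjusted p = 0.212).

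**Figure D2:**
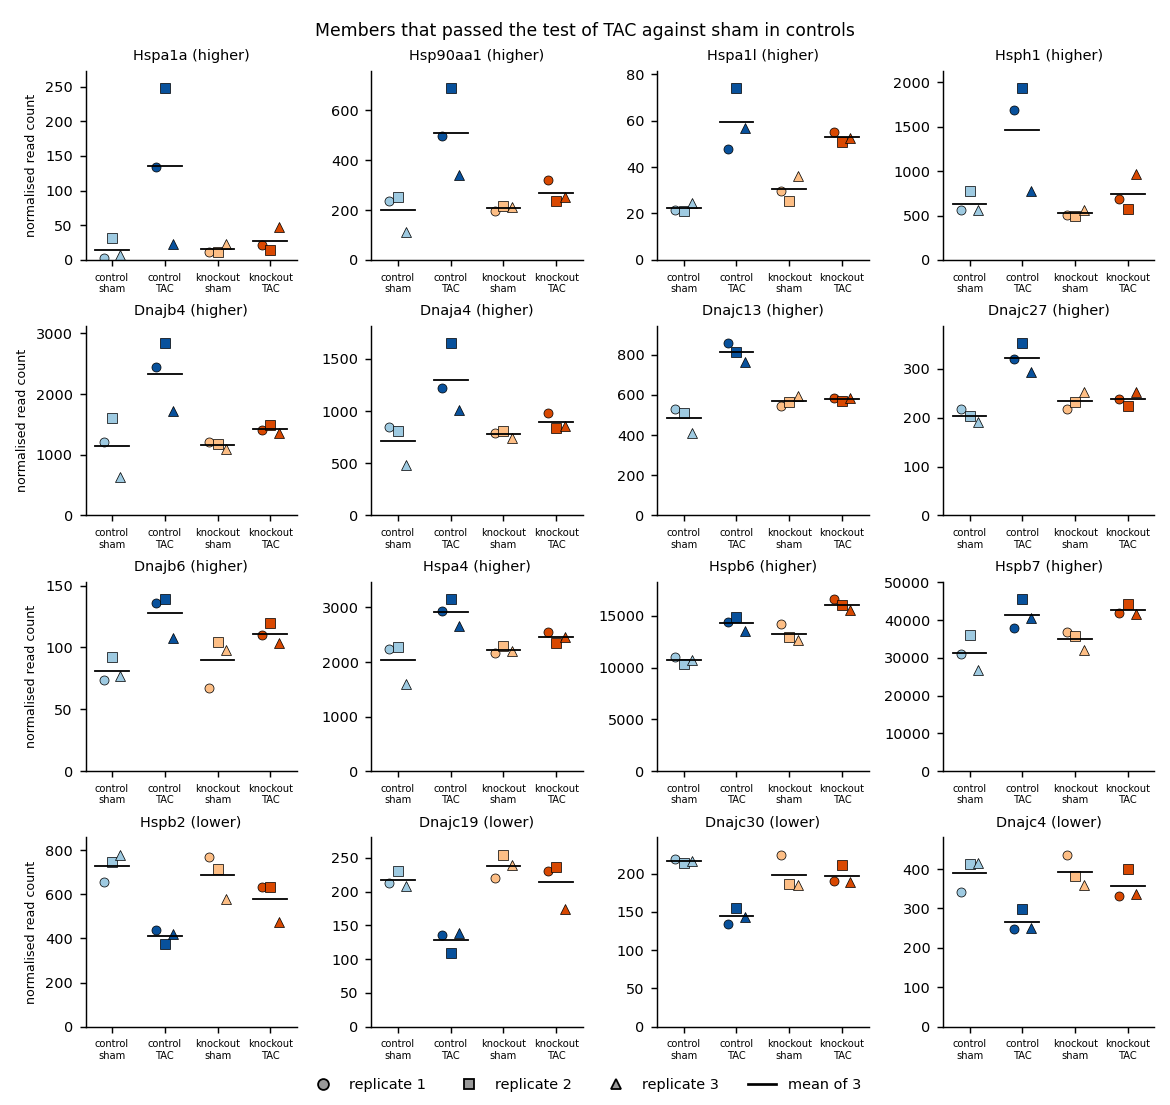
Normalised read count of the 16 members that passed with TAC in controls, by group; each symbol is 1 library (circle, square and triangle for replicates 1, 2 and 3), and the line is the mean of 3. Hspa1a is the only one of them whose control sham and control TAC libraries overlap, with replicate 3 of control TAC at 22.4 beside 134 and 248.

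Of the 11 members placed in the endoplasmic reticulum, 0 passed with TAC in controls by limma-trend. An unadjusted p under 0.05 was found in 4 of them and in 4940 of all 13916 tested genes. Of the 11 changes 10 were above 0 (median 0.28), as were 7034 of the 13916. Hspa5, whose promoter holds the stress element, was at 8051, 8654 and 6422 in control sham and 8527, 8636 and 7176 in control TAC, a change of 0.080 ± 0.13 (adjusted p = 0.708). Its partners Dnajb9, Dnajb11 and Dnajc3 had 0.28, 0.046 and 0.35, with adjusted p of 0.367, 0.83 and 0.093. Of the 9 mitochondrial members 2 were lower, the Dnajc19 and Dnajc30 described above, and 0 were higher. Hspa9 was at 10872, 11209.6 and 7236 in control sham and 10339.6, 10527 and 10664 in control TAC, a change of 0.13 ± 0.15 (adjusted p = 0.554). The chaperonin genes, which share most of a promoter, differed in sign: Hspd1 had 0.17 ± 0.15 (adjusted p = 0.438) and Hspe1 −0.44 ± 0.16 (adjusted p = 0.0653). Neither passed, and the difference between these 2 genes was not tested. The genes overlap by 112 bases on opposite strands.

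Set beside the promoters, Hsph1 and Dnajb6 are the 2 of 11 higher members in the promoter table with a full heat shock element, and 0 of the 2 lower members in the table had one. The shorter inverted pair was in 7 of the 11 (Dnaja4, Dnajb4, Dnajb6, Dnajc27, Hspa1a, Hspb6 and Hsph1), in 8 of 39 tested members that did not pass and in 17.0% of all genes in the table. The search for the pair was added after these calls were known, and the higher member Hsp90aa1 is not in the promoter table. Hspd1 and Hspe1 hold full elements and did not pass.

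**Figure D3:**
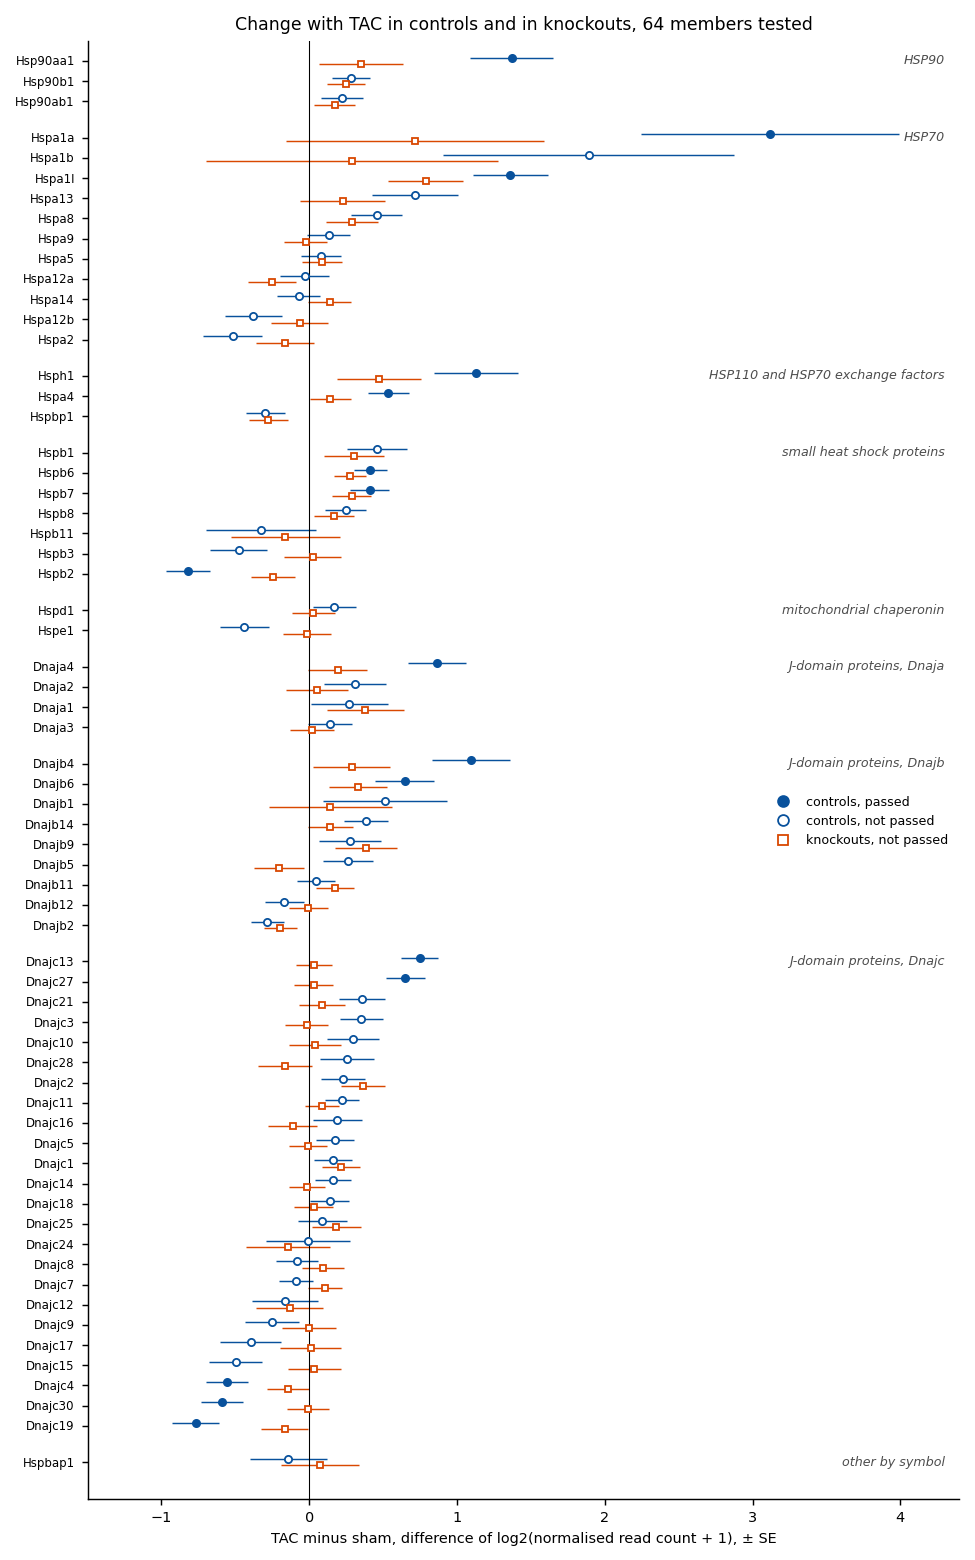
Change with TAC (difference of log2(normalised read count + 1), ± SE) in controls (circles, filled where the test passed) and in knockouts (squares), for the 64 tested members by role. In controls 12 members passed above 0 and 4 below it; in knockouts the changes lie between −0.28 and 0.79, and none passed by limma-trend.

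The rise in controls was uneven across the 3 control TAC libraries. Replicate 2 was the highest of them in 11 of the 12 higher members, and replicate 3 the lowest in 10 of 12. Over all 1533 genes that were higher with TAC, replicate 2 was the highest in 58.9% and replicate 3 the lowest in 56.3%. Over all 64 tested members the counts were 42 and 32, and over all tested genes the shares were 36.7% and 35.9%. Without replicate 3, 18 members passed as higher (9.35% of genes then did), 11 of the original 12 among them, and 4 as lower. The members that passed only then were Hspa1b, Hspa8, Hspb1, Dnaja1, Dnajb1, Dnajb5 and Dnajc3. Without control TAC replicate 1, 8 members were higher (6.66% of genes), and without replicate 2, 6 were (5.26%). Leaving out control sham replicate 3, the library that stood apart, gave 10 higher (8.60% of genes) and 4 lower (8.66%). What sets control TAC replicate 3 apart was not tested, and the labels give no batch for it. Its share of mitochondrial reads was 17.1% against 15.5% and 15.9% in the other control TAC libraries.

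**Figure D4:**
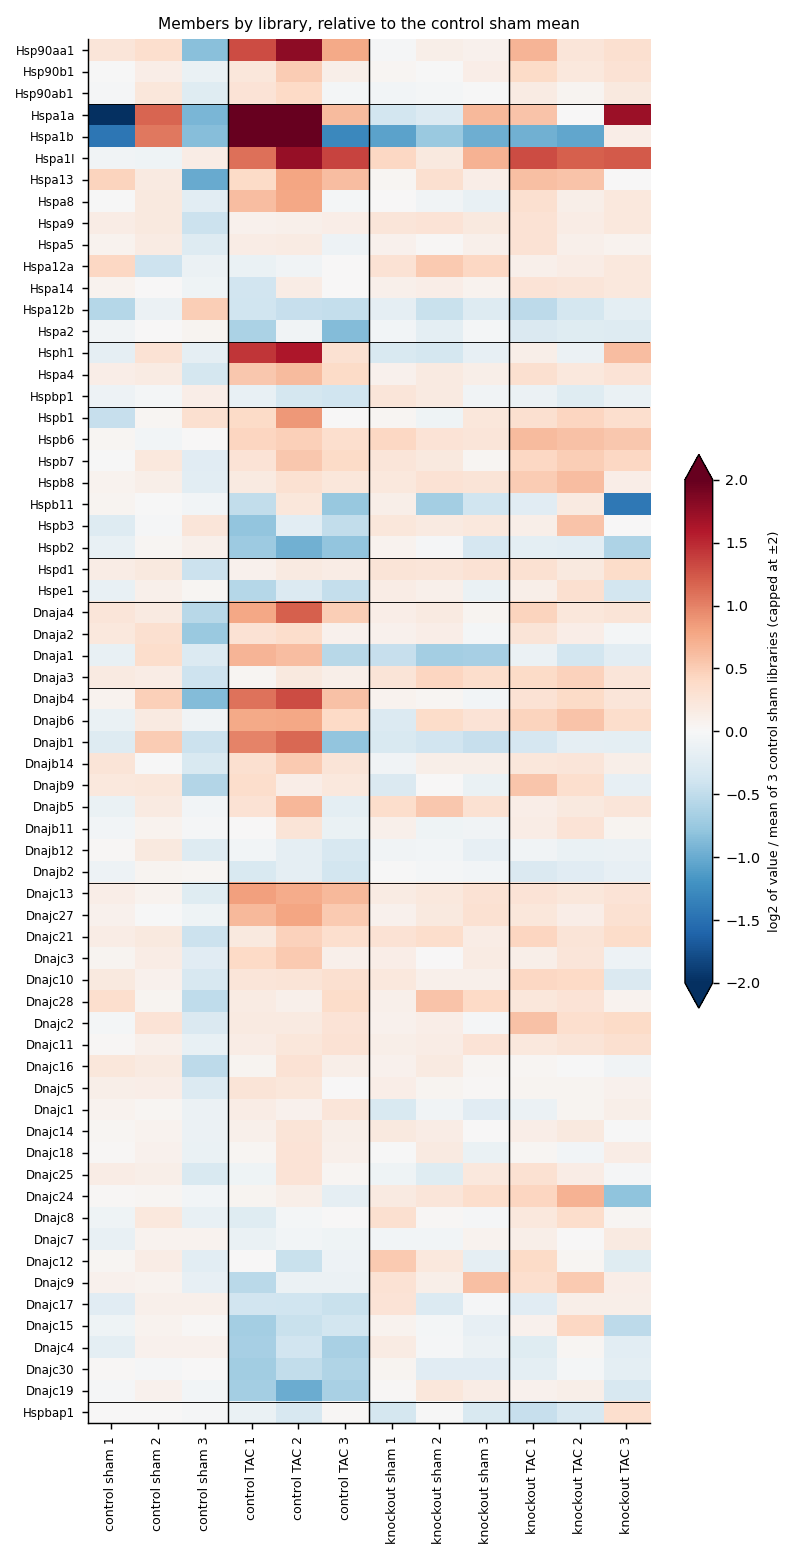
Heat map of the 64 tested members (rows, grouped by role) in the 12 libraries (columns), coloured by log2 of the value over the mean of the 3 control sham libraries and capped at 2 in either direction. Hspa1a, Hspa1b, Hsph1, Hsp90aa1 and Dnajb1 are red in control TAC replicates 1 and 2, and paler or blue in replicate 3.

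Changes with TAC in controls went with transcript length in the members as in all genes. Across the 64 members, which are not independent replicates and share the libraries, Spearman's rho between the change and the length of the longest transcript was 0.36, and across 13906 genes with a known length it was 0.41. The 15 members under 2000 bases had a median change of −0.30 (−0.31 over all such genes) and the 21 members of 4000 bases or more had 0.26 (0.24 over all). After the trend with length and GC content was removed from each library, 10 members were higher (4.10% of genes then were) and 2 were lower (6.47%). Of the 4 genes that fell, Dnajc19 still did (−0.99, adjusted p = 6.7e-04), while Hspb2 had −0.30 (adjusted p = 0.139), Dnajc30 −0.32 (adjusted p = 0.133) and Dnajc4 −0.13 (adjusted p = 0.553). Among the long genes, Dnajc13 had 0.28 (adjusted p = 0.108), Hspa4 0.30 (adjusted p = 0.115), Hsph1 0.91 (adjusted p = 0.0747) and Dnajb4 0.73 (adjusted p = 0.0621). Hspa1a, Hsp90aa1, Hspa1l, Dnaja4, Dnajb6, Dnajc27, Hspb6 and Hspb7 still passed, and Hspb1 (1.03, adjusted p = 0.00164), Hspb8 (0.45, adjusted p = 0.0431) and the mitochondrial Dnajc15 (−0.90, adjusted p = 0.0168) then did too.

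**Figure D5:**
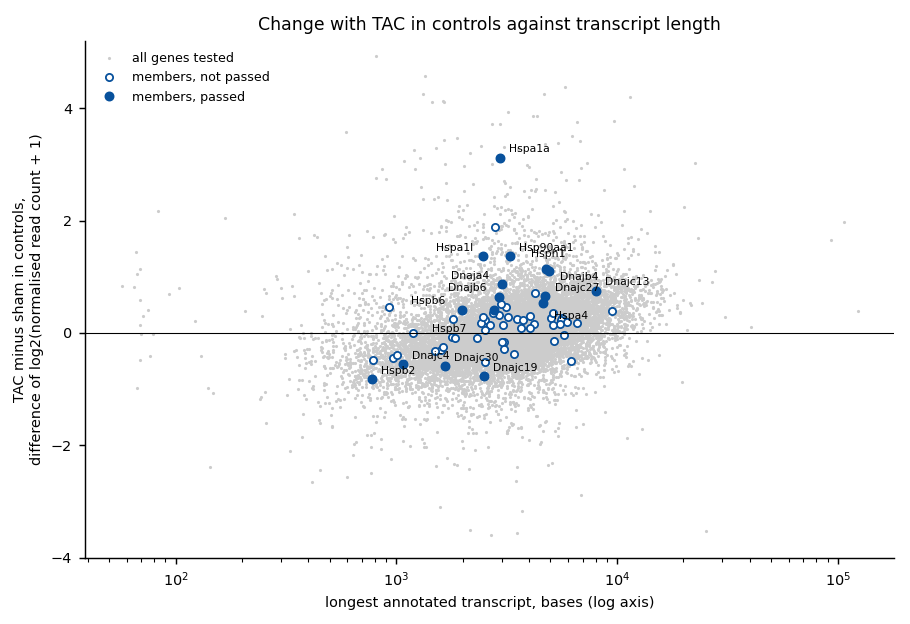
Change with TAC in controls (difference of log2(normalised read count + 1)) against the length of the longest transcript in bases (log axis), for all genes tested (grey) and the members (circles, filled and named where they passed). Hspb2 and Dnajc4, which fell, are among the shortest members, and the long Dnajc13 is above 0.

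TAC against sham in knockouts asked whether the same operation moved these genes without lincRNA-p21. No measure of the pressure entered the comparisons, so the load of the genotypes was not compared. By limma-trend 0 of the 64 members passed (0.00719% of all genes, a single gene, did). An unadjusted p under 0.05 was found in 4 members and in 929 of all 13916 genes. The count was 0 by edgeR and DESeq2 as well, and voom with quality weights called 6 members higher (Dnajb9, Dnajc2, Hsp90b1, Hspa1l, Hspb6 and Hspb7) and 3.03% of all genes. The median change was 0.063 over the members and −0.0053 over all genes. In 15 members all TAC libraries were above all sham libraries (8.31% of genes) and in 5 all were below (8.87% of genes).

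The members with the smallest p in knockouts were Hspa1l, Hspb6, Dnajc2, Hspb7 and Hspbp1. Hspa1l was at 29.5, 25.5 and 36.2 in knockout sham and 55.0, 51.0 and 52.4 in knockout TAC, without overlap, a change of 0.79 ± 0.25 (adjusted p = 0.62). Hspb6 went from 14212, 12960.2 and 12651 in knockout sham to 16610.3, 16045 and 15533 in knockout TAC and Hspb7 from 36794, 35697 and 32162 in knockout sham to 41782, 44139 and 41659.7 in knockout TAC, each without overlap, by 0.28 ± 0.11 (adjusted p = 0.684) and 0.29 ± 0.13 (adjusted p = 0.735). Dnajc2, a J-domain protein that sits on ribosomes, had 0.36 ± 0.15 (adjusted p = 0.687), and Hspbp1 −0.28 ± 0.13 (adjusted p = 0.735). These 5 had no overlap between groups and did not pass by limma-trend.

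Hspa1a, Hspa1b, Hsp90aa1, Hsph1, Dnajb1, Dnajc13 and Dnajc27 passed in knockouts under none of the settings run. Hspa1a was at 11.2, 11.9 and 22.6 in knockout sham and 21.2, 14.4 and 46.9 in knockout TAC, with a change of 0.72 ± 0.87 (adjusted p = 0.915), and Hspa1b was at 15.3, 19.2 and 16.3 in knockout sham and 16.4, 15.5 and 34.9 in knockout TAC. Summed, the pair was at 26.4, 31.0 and 38.9 in knockout sham and 37.7, 29.9 and 81.8 in knockout TAC. Hsp90aa1 was at 197, 216 and 213 in knockout sham and 319.6, 236 and 251 in knockout TAC, a change of 0.35 ± 0.28 (adjusted p = 0.857). Hsph1 was at 509, 496 and 565 in knockout sham and 683, 579 and 968 in knockout TAC, highest in knockout TAC replicate 3, with 0.47 ± 0.28 (adjusted p = 0.789). Dnajb1 held between 217 and 263 in all 6 knockout libraries. Dnajc13, at 544, 565 and 596 in knockout sham and 586, 570.1 and 586 in knockout TAC, and Dnajc27, at 217, 233 and 252 in knockout sham and 239, 224 and 253 in knockout TAC, overlapped between sham and TAC, with changes of 0.032 and 0.029.

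The comparisons in controls and in knockouts share no library. The 12 higher members ran from 0.41 to 3.12 in controls and from 0.029 to 0.79 in knockouts, and the 4 lower members from −0.82 to −0.55 in controls and from −0.25 to −0.0097 in knockouts. These 16 were picked because they passed in controls, which by itself favours larger changes there than in knockouts. The ranges therefore do not compare the genotypes. In 8 of the 12 the knockout TAC libraries were all above the knockout sham libraries, as in 21.7% of the 1533 genes that were higher in controls and 8.31% of all genes. The test of the difference between these effects is the interaction given below, and by limma-trend it passed for none of the 16 members. DESeq2 and voom made calls among them, which are named there. Of the abundant members, the small heat shock proteins Hspb6 and Hspb7 and the reticulum's Hsp90b1 passed in knockouts with voom, and none by limma-trend. Among others of high level, Hspa5 had a change of 0.087 ± 0.13, Hspa8 0.29 ± 0.17, Hspa9 −0.024 ± 0.15, Hsp90ab1 0.17 ± 0.14 and Hspd1 0.028 ± 0.15, with adjusted p from 0.789 to 0.982.

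Knockout against control after sham asked what the loss of lincRNA-p21 did without load. By limma-trend 0 of 64 members passed (0% of genes did), and 6 had an unadjusted p under 0.05, as had 604 of all 13916 genes. The count of members was 0 by edgeR, DESeq2 and voom as well. The 5 with the smallest p were Hspb6, Hspa12a, Dnaja3, Dnajb5 and Dnaja1, with changes of 0.31, 0.45, 0.37, 0.40 and −0.58 and an adjusted p of 0.934 for each. Hspb6 was at 11051, 10343 and 10756 in control sham and 14212, 12960.2 and 12651 in knockout sham, without overlap. Dnaja1 was at 259, 366 and 238 in control sham and 209, 179 and 181 in knockout sham, all knockout libraries being lower. In 12 members every knockout sham library was above every control sham library (4.94% of genes) and in 1 every one was below (4.68% of genes). Control sham replicate 3, low in 42 members, is in this comparison, and its part in that count was not tested.

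Knockout against control after TAC passed for 3 members. Dnajc19 and Hspb3 were higher in knockouts (2 of 64, with 4.10% of all genes) and Dnajc13 was lower (1 of 64, with 4.13%). Counting these 3, 15 members had an unadjusted p under 0.05, as had 3477 of all 13916 genes. Dnajc19 was at 135, 109 and 139 in control TAC and 231, 236 and 174 in knockout TAC, without overlap. The difference was 0.73 ± 0.16 (adjusted p = 0.0119), and it held with the trend of length and GC removed (adjusted p = 0.0165). The call was lost without control TAC replicate 2 (adjusted p = 0.0628), knockout TAC replicate 1 (adjusted p = 0.0716) or knockout TAC replicate 2 (adjusted p = 0.0764). Hspb3 was at 87.6, 131 and 107 in control TAC and 163, 224 and 152 in knockout TAC, without overlap, a difference of 0.72 ± 0.19 (adjusted p = 0.0312). Dnajc13 was at 856, 816 and 764 in control TAC and 586, 570.1 and 586 in knockout TAC, which gave −0.48 ± 0.12 (adjusted p = 0.0261). With the trend of length and GC removed, the last 2 did not pass (0.48, adjusted p = 0.116, for Hspb3 and −0.11, adjusted p = 0.646, for Dnajc13). Leaving out a library also ended both calls. For Hspb3 this held for control TAC replicates 1 and 3 and knockout TAC replicates 1 and 2 (adjusted p from 0.057 to 0.178), and for Dnajc13 for replicates 1 and 2 of either TAC group (adjusted p from 0.0888 to 0.111). Scaling to library totals, which moved the median of all genes by −0.093, gave 6 members lower and 1 higher, and 951 genes lower and 299 higher against 575 and 570. Across members, rho between this difference and length was −0.53, and across genes −0.47.

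The control TAC libraries are shared with the first comparison, so these values are not independent of it. Around the threshold lay Hspb2 (438, 376 and 422 in control TAC and 633, 632 and 477 in knockout TAC, 0.48 ± 0.15, adjusted p = 0.0528) and Dnajc9 (0.59, adjusted p = 0.0581), a J-domain chaperone of histones. Hspd1 and Hspe1, whose promoters hold full heat shock elements, had differences above 0 (0.15 and 0.47, lowest adjusted p = 0.0839). Over its control sham mean, Hspb1 was at 1.30, 1.83 and 1.01 in control TAC and 1.25, 1.34 and 1.26 in knockout TAC, with overlap. Of other genes known to respond to heat, Hsph1 had −0.91 ± 0.28 (adjusted p = 0.0636), Hsp90aa1 −0.87 ± 0.28 (adjusted p = 0.0703), Dnajb4 −0.69 ± 0.26 (adjusted p = 0.117), Hspa1a −1.86 ± 0.87 (adjusted p = 0.209) and Hspa1b −2.11 ± 0.99 (adjusted p = 0.215), so none passed by limma-trend. Of these, edgeR called Hsp90aa1 and Hsph1 lower (4.35% of genes were), and DESeq2 called Dnajb4, Hsp90aa1, Hspa1b and Hsph1 (6.13%). Voom and scaling to library totals each called Dnajb4, Hsp90aa1 and Hsph1 lower (13.6% and 6.83% of genes). A fit on the TAC groups alone called Dnajb4 and Hsp90aa1 lower, with 801 of all 13916 genes. Without control TAC replicate 3, 7 members were lower in knockouts (4.20% of genes): Hspa1a, Hspa1b, Hsp90aa1, Hsph1, Dnaja1, Dnajb1 and Dnajc13. In 16 members every knockout TAC library was above every control TAC library (15.6% of genes) and in 8 every one was below (15.5%). Markers of ventricular muscle cells moved with this comparison, with sums of 929510 to 1007480 in knockout TAC against 723740 to 802085 in control TAC. Of these 8 genes 5 were higher and 1 was lower. Of 6 atrial markers 4 were lower and 1 was higher, and 3 of 7 fibroblast markers were lower. Higher were 2 of 6 mesothelial and 2 of 5 erythroid markers, and no marker of the remaining lists passed. The part of these lists in the comparison was not tested.

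The difference of the TAC effects between genotypes is the direct test of whether TAC moved a gene differently in knockouts. By limma-trend 0 of 64 members passed (0.309% of genes did), and the counts were 0 by edgeR and 2 by DESeq2. An unadjusted p under 0.05 in limma-trend was found in 8 members and in 2292 of all 13916 genes. The 5 members with the smallest p were Dnajc13, Dnajc27, Dnajc30, Hspb2 and Dnajc19. The effect in knockouts minus that in controls was −0.72 ± 0.18 for Dnajc13 (adjusted p = 0.0826) and −0.62 ± 0.19 for Dnajc27 (adjusted p = 0.131). The differences were 0.58 ± 0.20 for Dnajc30, 0.57 ± 0.21 for Hspb2 and 0.60 ± 0.22 for Dnajc19, with adjusted p from 0.172 to 0.199. DESeq2 called Dnajc13 and Dnajc27 lower (1.98% of genes). Voom called Dnajc15, Dnajc19, Dnajc30 and Hspb2 higher (5.33% of genes) and Dnajc13 and Dnajc27 lower (5.97%), so that the members' 4 and 2 of 64 lie near the shares of all genes. For Hsp90aa1 the difference was −1.02 ± 0.40 (adjusted p = 0.225), for Hsph1 −0.66 ± 0.40 (adjusted p = 0.439) and for Hspa1a −2.40 ± 1.23 (adjusted p = 0.357). With standard errors of this size, these values neither tell the genotypes' effects on these 3 genes apart nor show them to be alike.

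Genes of the pathway under other symbols were counted from lists of heat shock factors, co-chaperones, other chaperonins, folding factors and mitochondrial proteases. Of 69 tested, 4 were higher with TAC in controls (11.0% of all genes were) and 13 were lower (10.6% of all genes), with a median change of −0.098. Some genes are on several lists. Of the 13 genes of the TRiC and prefoldin list 3 were lower and 0 higher, of 14 HSP90 co-chaperones 2 were lower and 0 higher, and of 12 HSP70 co-chaperones 4 were lower and 2 higher. Of 14 other folding genes of the endoplasmic reticulum 2 were lower and 1 higher, of 12 other mitochondrial chaperones and proteases 3 were lower and 1 higher, and 0 of 4 heat shock factors passed. Hsf1, the factor that binds heat shock elements, was at 516 to 703 in control sham and 481 to 554 in control TAC, a change of −0.18 ± 0.13 (adjusted p = 0.357), which concerns its RNA and not its activity. Bag3, partner of Hspb8, had 0.00027 ± 0.15 (adjusted p = 0.999), and Stip1, the adaptor between HSP70 and HSP90, had 0.17 ± 0.14 (adjusted p = 0.434). Fkbp5, an HSP90 co-chaperone that glucocorticoids induce, had −0.0097 ± 0.52 (adjusted p = 0.992), Hyou1, the large HSP70 relative of the reticulum, −0.028 ± 0.14 (adjusted p = 0.907) and Trap1, the mitochondrial HSP90, −0.17 ± 0.12 (adjusted p = 0.345). After TAC, 4 of the 69 were higher in knockouts than in controls (Bag1, Clpp, Fkbp4 and Pfdn2, where 4.10% of all genes were higher) and 0 were lower (4.13% of all genes). Genes named in brackets in this paragraph were chosen after their values were seen. The TAC comparison in knockouts passed for 0 of the 69, with 3 at an unadjusted p under 0.05 (929 of all 13916 genes).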

How the data were processed

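Per the labels' protocols, polyadenylated RNA was extracted with TRIzol and sequenced after a stranded TruSeq mRNA preparation. The submitters' processing notes name STAR, SAMtools, featureCounts and the build GRCm38.p6. Neither versions nor strand setting nor the treatment of multi-mapped reads is given in these sources. As deposited, the table holds a normalised signal: the authors' read counts divided by 1 size factor per library. Whole reads were recovered for 100.0% of values above 0 (tolerance 0.01), 10323605 to 13238934 per library, and the factors equal DESeq2's median of ratios. Symbols, lengths and positions came from GENCODE M21 (55480 of 56350 IDs matched).

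Values were tested as log2(value + 1) with limma 3.58.1 (limma-trend, robust moderation, R 4.3.3) in 1 fit of 4 group means over all 12 libraries. Genes entered if 3 or more libraries had a value of 10 or more, and p-values were adjusted by Benjamini-Hochberg over all 13916 genes in each of 5 contrasts, with a threshold of 0.05. Alternatives were pseudocounts of 0.5 and 5, other filters, edgeR 4.0.16, DESeq2 1.42.0 and voom with quality weights on recovered reads, other scalings, 2 groups only, the replicate number as a block, removal of the trend with transcript length and GC content, and leaving out each library. edgeR's quasi-likelihood test on the recovered reads called 1481 genes higher and 1521 lower with TAC in controls. The fits were also run on simulated counts. These held no outlying library and no trend with length or GC content, so they do not show how the fits handle either.

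Named were all members that passed, up to the 15 with the smallest p in each direction, the 5 with the smallest p where fewer than 5 passed, a fixed set of well-known members in the TAC comparisons, and Cryab, Hsf1, Bag3, Fkbp5, Stip1, Hyou1 and Trap1. Members, lists, roles and markers were chosen with earlier results of these data known. Any other gene named was chosen after its values were seen. Markers of fibroblasts, endothelial and mural cells, macrophages, lymphocytes, adipocytes and Schwann cells were counted too. With TAC in controls 1 of 7 fibroblast markers was higher, 1 of 8 endothelial and 2 of 7 mural markers were lower, and 0 of 7 macrophage markers passed. Of the lymphocyte, adipocyte and Schwann cell lists, 2 of 7, 1 of 4 and 3 of 4 genes could be tested.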

Additional observations from a re-analysis of the deposited data

How the results depend on the processing

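Of 2493 values for named genes under the alternatives, 2322 kept their sign and their side of the threshold, 51 newly passed and 61 no longer did. The other 59, of 23 results, had the opposite sign, and neither they nor their reported values passed. They include Bag3 with TAC in controls, reported at 0.00027, whose 6 opposite values reached −0.12, and Fkbp5, reported at −0.0097, whose 2 reached 0.54. The 19 values that passed kept their sign throughout. Counts of members moved more. With TAC in controls, 12 higher became 6 with only the 2 groups compared (Dnaja4, Dnajc13, Dnajc27, Hsp90aa1, Hspa1l and Hsph1). The 12 became 6 to 18 when 1 library was left out (6 without control TAC replicate 2, 18 without control TAC replicate 3). The 4 lower became 7 with voom, 2 with the trend of length and GC removed, also with the replicate block added, and 3 to 7 when 1 library was left out (7 without control sham replicate 1). In knockouts, voom called 6 higher. Over all genes, 1533 higher and 1473 lower with TAC in controls became 751 and 682 with only the 2 groups, 1661 and 1590 with voom and 570 and 900 with the trend removed, and 1 higher in knockouts became 422 with voom. With TAC in controls they became 673 and 1021 with the trend removed and the block added. Without control sham replicate 1 they were 1999 and 1657. Without control TAC replicate 2 they were 732 and 817, and without control TAC replicate 3 they were 1301 and 1172.

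After TAC, the 2 members higher in knockouts became 5 with a minimum value of 50, 6 with DESeq2, 12 with voom, 1 with scaling to library totals, 1 with the trend removed, with or without the block, and 0 to 6 with 1 library left out. The 1 lower became 0 with no filter, 2 with a minimum of 50, 3 with edgeR, 6 with DESeq2, voom or library totals, 3 with only the 2 groups, 3 with the replicate block (Dnajb4, Dnajc13 and Hsp90aa1), 0 with the trend removed and 0 to 7 with 1 library left out. For the difference of the TAC effects, 0 higher became 4 with voom and 0 to 1 with 1 library left out. There 0 lower became 2 with DESeq2 or voom, 1 with library totals and 0 to 1 with 1 library left out. Counts over all genes moved too. After TAC, 570 higher and 575 lower became 655 and 556 with a minimum of 50, 623 and 605 with edgeR, 848 and 853 with DESeq2, 1924 and 1888 with voom, 299 and 951 with library totals and 381 and 209 with the trend removed. They became 588 and 610 with the replicate block, 629 and 801 with only the 2 groups and 432 and 590 with no filter. Without knockout TAC replicate 1 they were 52 and 162, and without knockout TAC replicate 3 they were 1044 and 901. For the difference of the effects, 2 higher and 41 lower became 204 and 276 with DESeq2, 742 and 831 with voom and 5 and 90 with library totals. Without control sham replicate 1 they were 236 and 519, and without knockout TAC replicate 3 they were 93 and 190. Fewer libraries or genes enter some of these by construction, and otherwise the cause was not tested.

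Of 18 pairs of same-numbered libraries of different groups, 3 had a correlation of their deviations over 0.1 (range −0.072 to 0.25). A library correlated best with its own number in 16 of 36 cases. These values do not settle whether the replicate number pairs samples, which the labels do not say. The replicate block gave 14 higher and 6 lower members with TAC in controls. Over all 13916 genes it gave 1636 higher and 1515 lower, against 1533 and 1473 without the block. Low depth limits Hspa1a and Hspa1b, which had 3 and 11 reads in control sham replicate 1.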

Other observations

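Symbols close to the rule but outside it included Hspg2, which encodes the matrix protein perlecan and is no heat shock protein, with normalised read counts of 5889 to 14286 over the 12 libraries. Processed pseudogenes whose symbol starts with Hsp or Dnaj were at or near 0. Those under other symbols were not looked at, and the treatment of multi-mapped reads is not given. The highest of those looked at, Hsp25-ps1, had 48 reads over all libraries, and Dnajc19-ps had 10. The summed count of all members was 1.14% to 1.35% of nonmitochondrial counts in control sham, 1.44% to 1.61% in control TAC, 1.29% to 1.31% in knockout sham and 1.49% to 1.52% in knockout TAC, so that the TAC libraries of each genotype were above its sham libraries. These sums rest mostly on abundant members such as Hspb7 and Hsp90ab1.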
